A study of Mus musculus with 16 samples.

Results

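*Cybb*, *Cyba*, *Ncf1* and *Ncf4* encode 4 subunits of the phagocyte NADPH oxidase. They were picked by gene symbol from the raw count files of 16 bulk RNA-seq libraries and are 4 of the 24421 genes counted there. All 4 were counted in every library and passed the filter on low counts.

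The cells were CD11b+ leukocytes of MC38-Ova tumours, a mouse colon carcinoma line that carries ovalbumin, grown under the skin of C57BL/6 Kaede mice aged 8 to 14 weeks. These mice carry a photoconvertible fluorescent protein, and violet light on day 13 turned the cells then in the tumour from green to red. Kaede-green cells therefore entered after the light, and Kaede-red cells were already there, although they also kept part of their green signal. Tumours were taken 24h later, on day 14, or 72h later, on day 16, and cells that were CD45+, Kaede+ and CD11b+ but lacked TER119 and NK1.1 were sorted. This gave 4 groups of 4 libraries: MG24 (Kaede-green, 24h), MR24 (Kaede-red, 24h), MG72 (Kaede-green, 72h) and MR72 (Kaede-red, 72h). All 16 libraries are labelled as controls and carry a single batch label. According to the study the libraries of this experiment stand for tumours of different mice, and whether a Kaede-green and a Kaede-red library of the same number share a mouse was not stated.

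The phagocyte oxidase passes electrons from NADPH across a membrane to oxygen and so makes superoxide, in the phagosome or at the cell surface. *Cybb* encodes NOX2, the electron-carrying chain, and *Cyba* the small chain that binds NOX2 and holds it stable; together they form flavocytochrome b. *Ncf1* encodes the cytosolic organiser that docks on *Cyba* once it is phosphorylated, and *Ncf4* encodes a cytosolic adaptor that binds a lipid of the phagosome membrane. Monocytes, macrophages and neutrophils express the set, and loss of any member causes chronic granulomatous disease, in which phagocytes cannot kill certain microbes.

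On the mm10 genome *Cybb* lies on chromosome X (9435252 to 9487771, minus strand) and *Cyba* on chromosome 8 (122424776 to 122432930, minus strand). *Ncf1* lies on chromosome 5 (134220053 to 134229625, minus strand) and *Ncf4* on chromosome 15 (78244801 to 78262580, plus strand). The exons span 5808 bases in *Cybb*, 3663 in *Ncf1*, 2020 in *Ncf4* and 1039 in *Cyba*. *Ncf1* shares 408 exon bases with *Gtf2ird2* on the other strand, and the strand setting of the counting was not stated. *Gtf2ird2* had 0 to 20 counts in a library and *Ncf1* 7 to 834.

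The bases just upstream of 3 of the 4 members are shown because at 72h *Cybb* and *Ncf1* were called higher and *Cyba* lower in Kaede-red cells. The *Ncf1* and *Cyba* calls were lost in several alternatives given further on, and whether these bases bear on the levels was not tested. The sequences were read from RefSeq promoters on GRCm38.p6, cover the 250 bases before the annotated start on the minus strand, and run 5′ to 3′. Of 5 motifs searched, 3 matched, and capitals mark the matches to a pair of GAAA with any 2 bases between them (the core of an interferon-stimulated response element), TGANTCA (an AP-1 site) and CCAAT, each read on both strands.
*Cybb* (chrX:9469325-9469574): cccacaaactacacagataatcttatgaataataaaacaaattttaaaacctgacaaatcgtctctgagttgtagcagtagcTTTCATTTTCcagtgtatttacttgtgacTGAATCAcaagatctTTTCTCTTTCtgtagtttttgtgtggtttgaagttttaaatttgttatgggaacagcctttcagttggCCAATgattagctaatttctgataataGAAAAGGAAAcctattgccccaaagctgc
*Ncf1* (chr5:134229626-134229875): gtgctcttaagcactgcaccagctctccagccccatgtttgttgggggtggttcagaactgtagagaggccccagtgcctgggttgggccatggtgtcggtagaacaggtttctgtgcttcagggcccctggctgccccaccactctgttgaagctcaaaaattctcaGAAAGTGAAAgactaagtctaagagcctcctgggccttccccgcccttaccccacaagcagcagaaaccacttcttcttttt
*Cyba* (chr8:122432941-122433190): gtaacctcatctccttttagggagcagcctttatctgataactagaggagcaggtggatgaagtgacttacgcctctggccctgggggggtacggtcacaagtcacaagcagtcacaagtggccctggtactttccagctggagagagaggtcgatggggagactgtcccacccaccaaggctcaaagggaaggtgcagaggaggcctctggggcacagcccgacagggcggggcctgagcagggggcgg

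The GAAA pair stood 3 times before *Cybb*, with its first base 168, 124 and 29 bases upstream of the start, and 1 time before *Ncf1*, 82 bases upstream. It was not found in the *Cyba* window, and 2.98% of all 32851 promoters of this length held it. TGANTCA stood 1 time before *Cybb* and in 6.75% of all promoters, and CCAAT stood 1 time before *Cybb* and in 33.8% of all. Neither stood in the windows of *Ncf1* and *Cyba*. GAGGAA, a form of the core bound by PU.1, stood in 23.3% of all promoters and TATAAA in 12.4%, and these 3 windows held neither. Shorter and other forms of the PU.1 core were not searched. The matches overlapped none of each other and are a description of letters only, and *Ncf4* was not in the table used. The GENCODE model of *Cybb* starts further upstream than the RefSeq start.

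Total counts ranged from 3216858 to 15423085 per library, and the ribosomal RNA gene *Rn45s* took 79.0 to 93.4% of them in Kaede-green and 55.8 to 84.9% in Kaede-red libraries. Its mean share differed by -17.5 percentage points (Kaede-red minus Kaede-green, -15.01 at 24h and -20.03 at 72h; two-sided exact permutation test within times, p = 0.000408, the smallest possible). Counts outside *Rn45s* had a median of 691122.5 in Kaede-green and 1696387.5 in Kaede-red libraries. On the log2 scale their red-green difference was 1.00 at 24h and 2.15 at 72h. They ranged from 1080792 to 5472477 in MR72 and from 758192 to 1968061 in MR24, so depth differed most where most members were called. For the members this left 100 to 6456 counts of *Cybb* in a library, 214 to 3507 of *Cyba* and 32 to 882 of *Ncf4*. Levels are given as CPM, counts relative to the library size scaled by trimmed means (TMM). The summed levels of *Itgam*, which encodes CD11b, *Ptprc* and *Itgb2* lay between 181 and 422 CPM in every library. This sum does not single out CD11b.

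Corrected for exonic length, *Cyba* was the most abundant member in every group, at 138 ± 49.2 CPM per kb (SD, n = 4) in MG24, 120 ± 15.4 in MR24, 120 ± 26.3 in MG72 and 75.9 ± 14.4 in MR72. *Cybb* stood at 10.8 ± 0.864, 10.1 ± 2.55, 10.2 ± 1.67 and 22.1 ± 2.19 CPM per kb in the same order of groups. *Ncf4* stood at 10.2 ± 2.71, 9.41 ± 1.48, 8.28 ± 1.91 and 11.0 ± 1.56 CPM per kb. *Ncf1* was the least abundant member, at 2.44 ± 1.33, 3.16 ± 0.755, 2.63 ± 1.04 and 4.61 ± 1.04 CPM per kb. *Cybb* and *Ncf4* thus lay close together in 3 groups and apart in MR72.

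**Figure D1:**
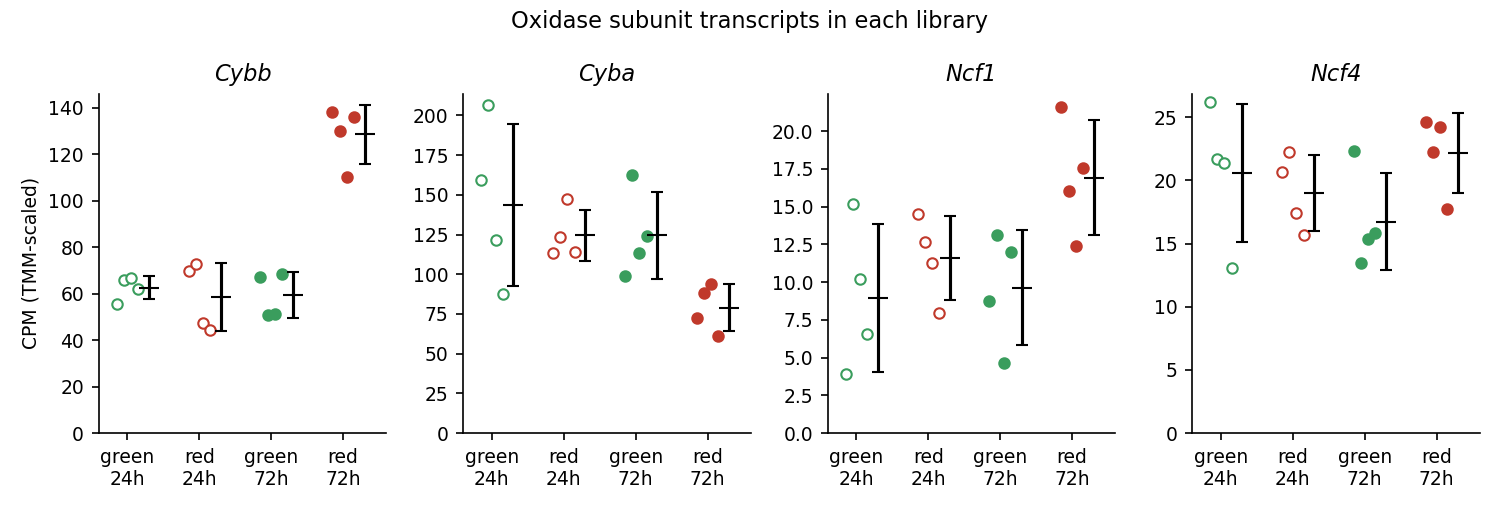
Level of each member in every library, as CPM after TMM scaling (vertical axis, from 0), for Kaede-green (green) and Kaede-red (red) cells at 24h (open) and 72h (filled). Points are libraries, and bars are the mean and SD of 4; *Cybb* in MR72 sits between 110 and 138 CPM and between 44.5 and 72.9 in the other 12 libraries, while *Cyba* in MR72 stays at 93.6 or under (with scaling by library size alone the *Cyba* difference at 72h has the opposite sign).

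*Cybb* was at 138, 130, 110 and 136 CPM in the 4 MR72 libraries. It was at 55.8, 66.0, 66.8 and 62.2 CPM in MG24, at 69.8, 72.9, 47.4 and 44.5 in MR24 and at 67.3, 51.0, 51.1 and 68.4 in MG72. Every MR72 library thus lay above all 12 others, which overlapped one another. In order of mean level the groups ran MR24, MG72, MG24 and MR72, and only the last step was beyond the spread of the libraries (two-sided exact permutation test, p = 0.0286, the smallest that 4 against 4 allow; p = 0.771 and 0.6 for the steps below).

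*Cyba* went the other way. Its level was 72.5, 88.4, 93.6 and 61.0 CPM in MR72, against 98.7, 162, 113 and 124 in MG72. It was 113, 123, 147 and 114 CPM in MR24 and 159, 206, 122 and 87.5 in MG24, where the libraries were most spread. The order was MR72, MG72, MR24 and MG24, and only the step from MR72 to MG72 was free of overlap (exact permutation test, p = 0.0286). MG24 replicate 4, at 87.5 CPM, lay within the MR72 range.

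*Ncf1* was at 21.6, 16.04, 12.4 and 17.6 CPM in MR72 and at 8.77, 13.1, 4.62 and 11.97 in MG72. In MR24 it was at 14.5, 12.6, 11.3 and 7.95 CPM and in MG24 at 3.90, 15.2, 10.2 and 6.54. MR72 had the highest mean, but neighbouring groups in the order MG24, MG72, MR24 and MR72 overlapped at every step (exact permutation p between 0.0857 and 0.743). *Ncf4* ranged from 17.7 to 24.6 CPM in MR72, 13.4 to 22.3 in MG72, 15.7 to 22.3 in MR24 and 13.1 to 26.2 in MG24. All its groups overlapped, and the differences between neighbours were within their spread (exact permutation p between 0.343 and 0.743).

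At 72h 3 of the 4 members were called between the colours, with more *Cybb* and *Ncf1* and less *Cyba* in Kaede-red cells, where 16.8% of all 9642 genes tested were called (edgeR quasi-likelihood test, Benjamini-Hochberg adjusted p under 0.05). *Cybb* had a mean of 129 CPM in MR72 and 59.4 in MG72, a log2 fold change of 1.11 (SE 0.19, adjusted p = 0.000110). All 4 MR72 libraries were above all MG72 libraries, as they were for 13% of all tested genes. *Ncf1* rose by 0.83 on the log2 scale (SE 0.29, adjusted p = 0.0486), from a mean of 9.62 to 16.9 CPM, with overlap. *Cyba* fell by 0.66 (SE 0.22, adjusted p = 0.0365), from 125 to 78.9 CPM, with all 4 MR72 libraries below all MG72 libraries, as for 9.52% of tested genes. With scaling by library size alone this *Cyba* difference turned to 1.28, where the median of all genes moved to 2.04, and without *Rn45s* it was -0.04 against a median of 0.69. *Ncf4* differed by 0.41 (SE 0.22, adjusted p = 0.205), with a 95% interval of -0.03 to 0.86. In bulk samples fewer cells of a type and less RNA per cell cannot be told apart.

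The *Cybb* call at 72h held without any 1 of the 16 libraries (adjusted p between 9.22e-05 and 0.00144). That of *Cyba* was lost without MR24 replicate 2, MG72 replicates 2 or 4, or MR72 replicates 1, 2 or 4 (adjusted p between 0.0506 and 0.137). The *Ncf1* call was lost without MG24 replicate 3, MR24 replicates 2 or 3, MG72 replicates 1 or 3, or MR72 replicates 1, 2 or 4 (adjusted p between 0.0516 and 0.224). With the *Rn45s* share as a covariate no member was called at 72h, with *Cybb* at 0.58 (adjusted p = 0.485), *Cyba* at -0.51 (adjusted p = 0.722) and *Ncf1* at 0.28 (adjusted p = 0.914).

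At 24h no member was called, against 7.5% of all genes (3.22% with more and 4.28% with less in Kaede-red cells). The log2 fold change of *Cybb* was -0.10 (95% interval -0.50 to 0.30) and that of *Cyba* -0.21 (-0.66 to 0.25). It was 0.33 for *Ncf1* (-0.31 to 0.97) and -0.11 for *Ncf4* (-0.56 to 0.35). The adjusted p ranged from 0.609 for *Ncf1* to 0.834 for *Ncf4*. The intervals show how large a difference of either sign these libraries would still allow. The *Rn45s* share differed by -15.01 points at this time, against -20.03 at 72h.

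Over both times together, *Cybb* and *Cyba* were called and *Ncf1* and *Ncf4* were not, with 20.3% of all genes called. By time, the log2 fold change of *Cybb* was -0.10 at 24h and 1.11 at 72h. Averaged over both, *Cybb* was 0.51 higher in Kaede-red cells on the log2 scale (SE 0.14, adjusted p = 0.00765), and the call held without any 1 library. It was lost with the *Rn45s* share as a covariate (0.020, adjusted p = 0.986) and with the length offset described further on (0.28, adjusted p = 0.151). *Cyba* fell by 0.43 (SE 0.16, adjusted p = 0.0470), a call lost without any 1 of MG24 replicates 1 and 2, MR24 replicates 1, 2 and 4, MG72 replicates 2 and 4 and MR72 replicates 1, 2 and 4 (adjusted p between 0.0557 and 0.131), and with scaling by library size alone it turned to 1.64, or to 0.34 without *Rn45s*. *Ncf1* was at 0.58 (SE 0.22, adjusted p = 0.0534). It passed without MG24 replicate 2, MR24 replicate 4, MG72 replicates 2 or 4 or MR72 replicate 3 (adjusted p between 0.0147 and 0.0416). *Ncf4* was at 0.15 (SE 0.16, adjusted p = 0.544).

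**Figure D2:**
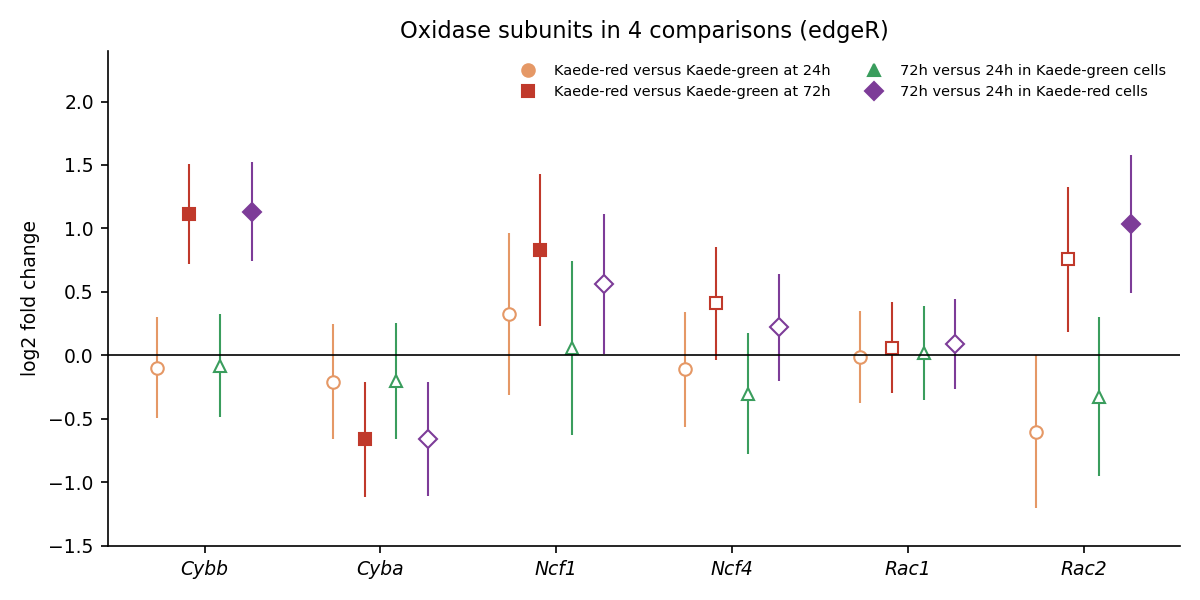
Log2 fold change (vertical axis) of the 4 members and of *Rac1* and *Rac2* in 4 comparisons, with 95% intervals from edgeR. Filled symbols passed an adjusted p of 0.05; *Cybb* stands at 1.11 for Kaede-red against Kaede-green at 72h and at 1.13 for MR72 against MR24, and near 0 in the other comparisons, while *Cyba* stands at -0.66 in both (called at 72h, where scaling by library size alone turns its sign).

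With time in Kaede-red cells, *Cybb* was the only member called, where 8.68% of all genes were. It rose by 1.13 on the log2 scale from MR24 to MR72 (SE 0.19, adjusted p = 0.000978), which placed it at rank 14 of 9642 genes by p. All 4 MR72 libraries were above all MR24 libraries, as for 11.8% of tested genes. *Cyba* was at -0.66 (SE 0.22, adjusted p = 0.0578) with every MR72 library below every MR24 library, as for 8.76% of genes, and passed without MG24 replicates 2 or 4 or MG72 replicate 2 (adjusted p between 0.0229 and 0.0451). *Ncf1* was at 0.56 (SE 0.27, adjusted p = 0.211) and *Ncf4* at 0.22 (SE 0.21, adjusted p = 0.584).

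Kaede-green cells of 72h and 24h showed no called difference in any member. *Cybb* was at -0.08 (95% interval -0.48 to 0.32), *Cyba* at -0.20 (-0.66 to 0.25), *Ncf1* at 0.06 (-0.63 to 0.74) and *Ncf4* at -0.30 (-0.78 to 0.18). In this comparison edgeR called 0 genes (0.0%), with 835 at an unadjusted p under 0.05, and DESeq2 called 12. The red-green difference of *Cybb* was 1.21 larger at 72h than at 24h (SE 0.28, adjusted p = 0.0373, interaction term), in a test that called 0.757% of all genes (0.425% higher and 0.332% lower). This call was lost without MG24 replicates 2 or 3, MR24 replicates 3 or 4, MG72 replicates 2 or 3, or MR72 replicates 1, 2 or 4 (adjusted p between 0.0595 and 0.101). The same term was -0.45 for *Cyba* (SE 0.31, adjusted p = 0.517), 0.50 for *Ncf1* (SE 0.43, adjusted p = 0.622) and 0.52 for *Ncf4* (SE 0.31, adjusted p = 0.437). The comparisons share libraries, so their values are set side by side only.

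Flavocytochrome b is made of *Cybb* and *Cyba* chains, so their raw counts were also compared within each library, which needs no scaling of the library. The counts are not corrected for exonic length (5808 bases in *Cybb* and 1039 in *Cyba*), so equal counts do not mark equal transcript numbers. Shifts between groups that go with exonic length, given further on, are not removed from the ratios either. The part of length in the ratios was not tested. The *Cybb* to *Cyba* count ratio was 1.90, 1.47, 1.18 and 2.23 in MR72. In MG72 it was 0.682, 0.315, 0.452 and 0.552, in MR24 0.617, 0.590, 0.322 and 0.391, and in MG24 0.351, 0.320, 0.550 and 0.711. So *Cybb* had more counts than *Cyba* in all 4 MR72 libraries and fewer in the other 12. Per kb of exons *Cyba* stayed the more abundant in MR72, at a mean of 75.9 against 22.1 CPM. The geometric means were 0.458 in MG24, 0.463 in MR24, 0.481 in MG72 and 1.65 in MR72. Over both times the log2 ratio was 0.89 higher in Kaede-red libraries (exact permutation test, p = 0.02, adjusted over the 6 pairs of members 0.06). At 72h it was 1.77 higher in Kaede-red libraries (exact permutation test, p = 0.0286, adjusted 0.0429), and at 24h it was 0.02 higher (p = 0.943). From 24h to 72h it rose by 1.83 in Kaede-red libraries (exact permutation p = 0.0286, adjusted 0.0343) and differed by 0.07 in Kaede-green libraries (p = 0.914). The change of its red-green difference with time was 1.76 (exact permutation p = 0.0269, adjusted 0.107).

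**Figure D3:**
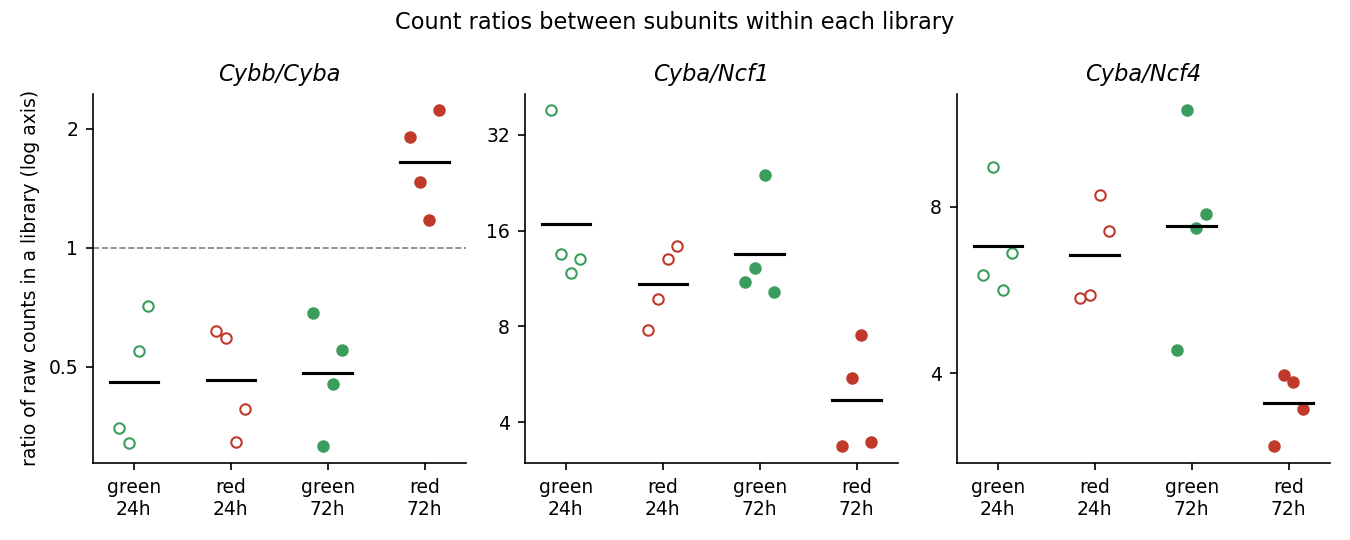
Ratio of raw counts of *Cybb* to *Cyba*, *Cyba* to *Ncf1* and *Cyba* to *Ncf4* in each library (vertical log axis); black lines are geometric means of 4 libraries. The dashed line marks equal raw counts of *Cybb* and *Cyba*, not corrected for exonic length, and only the MR72 libraries, from 1.18 to 2.23, lie above it.

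The ratios of *Cyba* to the cytosolic members differed at 72h as well. Over both times the log2 ratio of *Cyba* to *Ncf1* differed by -1.07 between Kaede-red and Kaede-green libraries (exact permutation p = 0.00367, adjusted 0.0220), and that of *Cyba* to *Ncf4* was -0.56 (p = 0.0331, adjusted 0.0661). At 72h the differences were -1.53 and -1.07, without overlap (exact permutation p = 0.0286 each, adjusted 0.0429), and at 24h they were -0.62 (p = 0.257) and -0.050 (p = 0.8), with overlap. The change of these differences with time did not pass after adjustment (-0.90 and -1.02, exact permutation test, adjusted p = 0.267 and 0.107). *Cybb* to *Ncf4* was 0.71 higher at 72h, without overlap (exact permutation p = 0.0286, adjusted 0.0429), and 0.34 over both times (p = 0.0890). Over both times *Cybb* to *Ncf1* (-0.18, exact permutation p = 0.514) and *Ncf1* to *Ncf4* (0.52, p = 0.122) did not pass, and they overlapped between the colours at each time. From 24h to 72h in Kaede-red libraries *Cybb* to *Ncf1* differed by 0.61, *Cybb* to *Ncf4* by 0.94, *Cyba* to *Ncf1* by -1.22 and *Cyba* to *Ncf4* by -0.89. These were without overlap (exact permutation p = 0.0286 each, adjusted 0.0343), while *Ncf1* to *Ncf4* was at 0.32 with overlap (p = 0.2).

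At 72h and with time in Kaede-red cells the fold changes of the members stood in the order of their exonic length, from *Cybb* over *Ncf1* and *Ncf4* to *Cyba*, and in the other comparisons they did not. Among all tested genes with a length, the median log2 fold change at 72h was -0.30 in the shortest of 5 length classes of like size (up to 2525 bases, with *Cyba* and *Ncf4*). It was 0.06 in the next class (with *Ncf1*) and 0.14 in the class of *Cybb* (5455 to 7857 bases). For the change with time in Kaede-red cells these medians were -0.30, -0.03 and 0.08. With an offset for exonic length, added after the data were seen, *Cybb* was at 0.94 at 72h (adjusted p = 0.000678), 1.05 with time in Kaede-red cells (adjusted p = 0.000871) and 1.31 in the interaction (adjusted p = 0.0114). *Cyba* was then at -0.38 at 72h (adjusted p = 0.165), -0.22 with time in Kaede-red cells (adjusted p = 0.522) and -0.35 over both times (adjusted p = 0.0482). *Ncf1* was at 0.65 at 72h (adjusted p = 0.111), and *Cybb* over both times at 0.28 (adjusted p = 0.151). With GC content in the offset too, *Cybb* was at 1.10 (adjusted p = 0.000104) and *Cyba* at -0.53 (adjusted p = 0.0449) at 72h. The part of length in the results was not tested beyond these values.

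**Figure D4:**
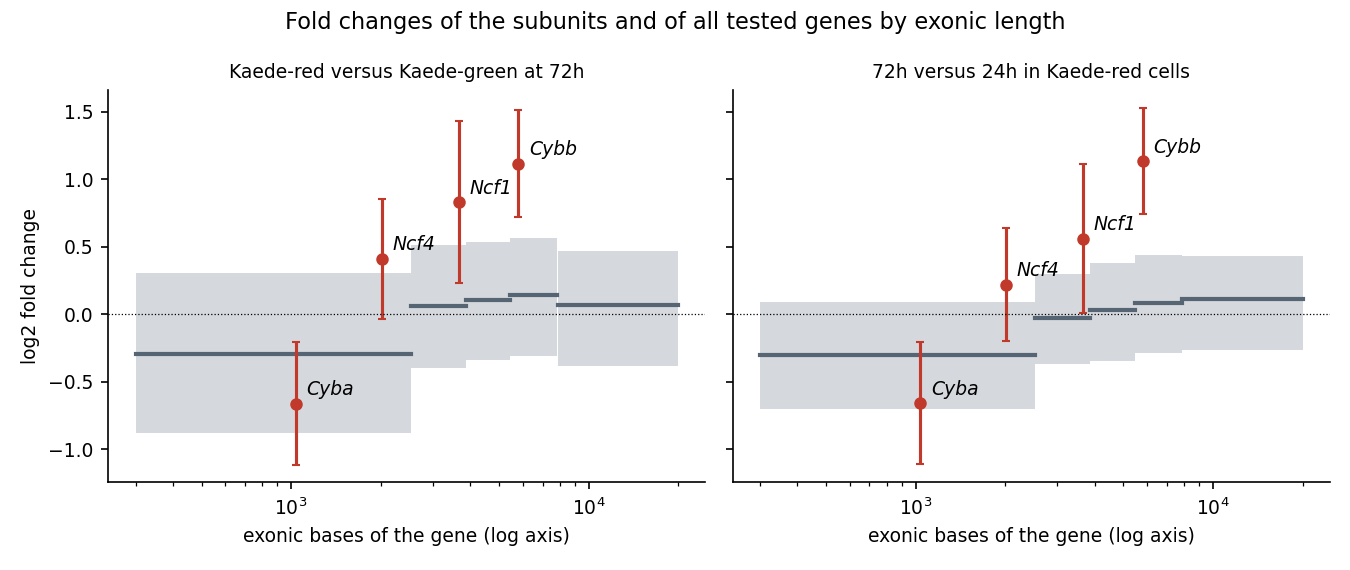
Log2 fold change (vertical axis) against exonic length (horizontal log axis, drawn from 300 to 20000 bases) for Kaede-red against Kaede-green at 72h and for MR72 against MR24. Red points are the members with 95% intervals, and grey blocks and dark lines are the quartiles and medians of all tested genes in 5 length classes; *Cybb* lies above the upper quartile of its class in both, and *Cyba* lies within the quartiles of the shortest class.

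Of the other parts of the enzyme, *Rac2* encodes a GTPase of blood cells that can serve the oxidase. *Rac2* had means of 14.98, 9.72, 11.6 and 19.8 CPM in MG24, MR24, MG72 and MR72. It rose with time in Kaede-red cells by 1.03 (adjusted p = 0.0148) and was at 0.76 at 72h (adjusted p = 0.0614). *Rac1*, its widely expressed relative, was at 63.5, 63.0, 64.2 and 67.0 CPM, with 0.06 at 72h (adjusted p = 0.866). Of its 4496 exon bases *Rac1* shares 2309 with *Daglb* on the other strand, and the strand setting of the counting was not stated. *Rap1a*, a GTPase found with flavocytochrome b, was lower in Kaede-red cells over both times, at -0.50 (adjusted p = 0.0111), and at -0.81 at 72h (adjusted p = 0.00461). *Rac1* and *Rac2* were called in neither of these comparisons, and *Cybc1*, the chaperone of flavocytochrome b, was not analysed here. The 9 genes of the other NADPH oxidases and their organisers (*Nox1*, *Nox3*, *Nox4*, *Duox1* and *Duox2* among them) had at most 4 counts in any library, and none passed the filter.

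Of the 17 tested kinases and lipid kinases that activate the oxidase, 3 rose over both times and 7 at 72h, and none fell, with 10% and 8.06% of all genes called higher and 10.3% and 8.76% lower. Those called over both times were *Pik3cg*, the lipid kinase downstream of chemoattractant receptors (1.26, adjusted p = 3.59e-05), *Mapk3* (0.68, adjusted p = 0.0207) and *Pak2* (0.67, adjusted p = 0.00188). At 24h *Pik3cg* was the only 1 called (1.23, adjusted p = 0.0153). Their median log2 fold change was 0.68 at 72h against 0.03 over all genes, without matching for exonic length. With time in Kaede-red cells 5 rose, namely *Syk*, *Pik3cd*, *Pik3cg*, *Pik3r5* and *Prkcd*, where 4.92% of all genes rose and 3.76% fell.

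Of 9 genes that load or unload Rac, 5 rose over both times and at 72h, where 10% and 8.06% of all genes rose. None of the 9 fell, against 10.3% and 8.76% of all genes. The 4 largest over both times were *Prex1*, a Rac exchange factor (0.81, adjusted p = 6.71e-05), *Arhgdia*, which holds Rac in the cytosol (0.70, adjusted p = 0.000783), *Arhgap25*, a Rac-inactivating protein of phagocytes (0.66, adjusted p = 0.0109), and *Vav1*, an exchange factor (0.62, adjusted p = 0.00259). The other was *Dock2*. With time in Kaede-red cells 4 rose (*Tiam1*, *Prex1*, *Dock2* and *Vav1*), where 4.92% of all genes rose. At 24h *Arhgdib* was lower (-0.76, adjusted p = 0.0318), as were 4.28% of all genes. The list holds both activators and inhibitors of Rac, and members of both kinds rose.

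Charge compensation and superoxide handling gave 7 tested genes. Of these 2 fell over both times and 1 at 72h, where 10.3% and 8.76% of all genes were called lower. These were *Sod1*, the cytosolic superoxide dismutase (-0.46, adjusted p = 0.0259), and *Gpx1*, which reduces hydrogen peroxide (-0.45, adjusted p = 0.0342, and -0.63 at 72h, adjusted p = 0.0405). *Hvcn1*, the proton channel that balances the charge moved by the oxidase, had group means of 0.728 to 2.27 CPM and a log2 fold change of 1.01 over both times (adjusted p = 0.122). Of 9 tested transcription factors that act on oxidase genes, *Cebpa* rose over both times (1.02, adjusted p = 0.00239) and *Cebpb* fell (-0.40, adjusted p = 0.0352), and both were also called at 24h. Of all genes 10% were called higher and 10.3% lower over both times, and 7.5% in either direction at 24h. At 72h 3 of the 9 factors rose, *Nfkb1* and *Rela* among them, where 8.06% of all genes rose. With time in Kaede-red cells 2 rose, *Nfkb1* and *Irf1*, where 4.92% of all genes did. *Spi1*, which encodes PU.1, was at 0.46 at 72h (adjusted p = 0.144). Values of all these lists are on the TMM scale, and library size alone moved the median of all genes over both times from 0.06 to 2.20, by more than the size of any fall named here. Genes of these lists beyond those called over both times were named after their values were seen.

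**Figure D5:**
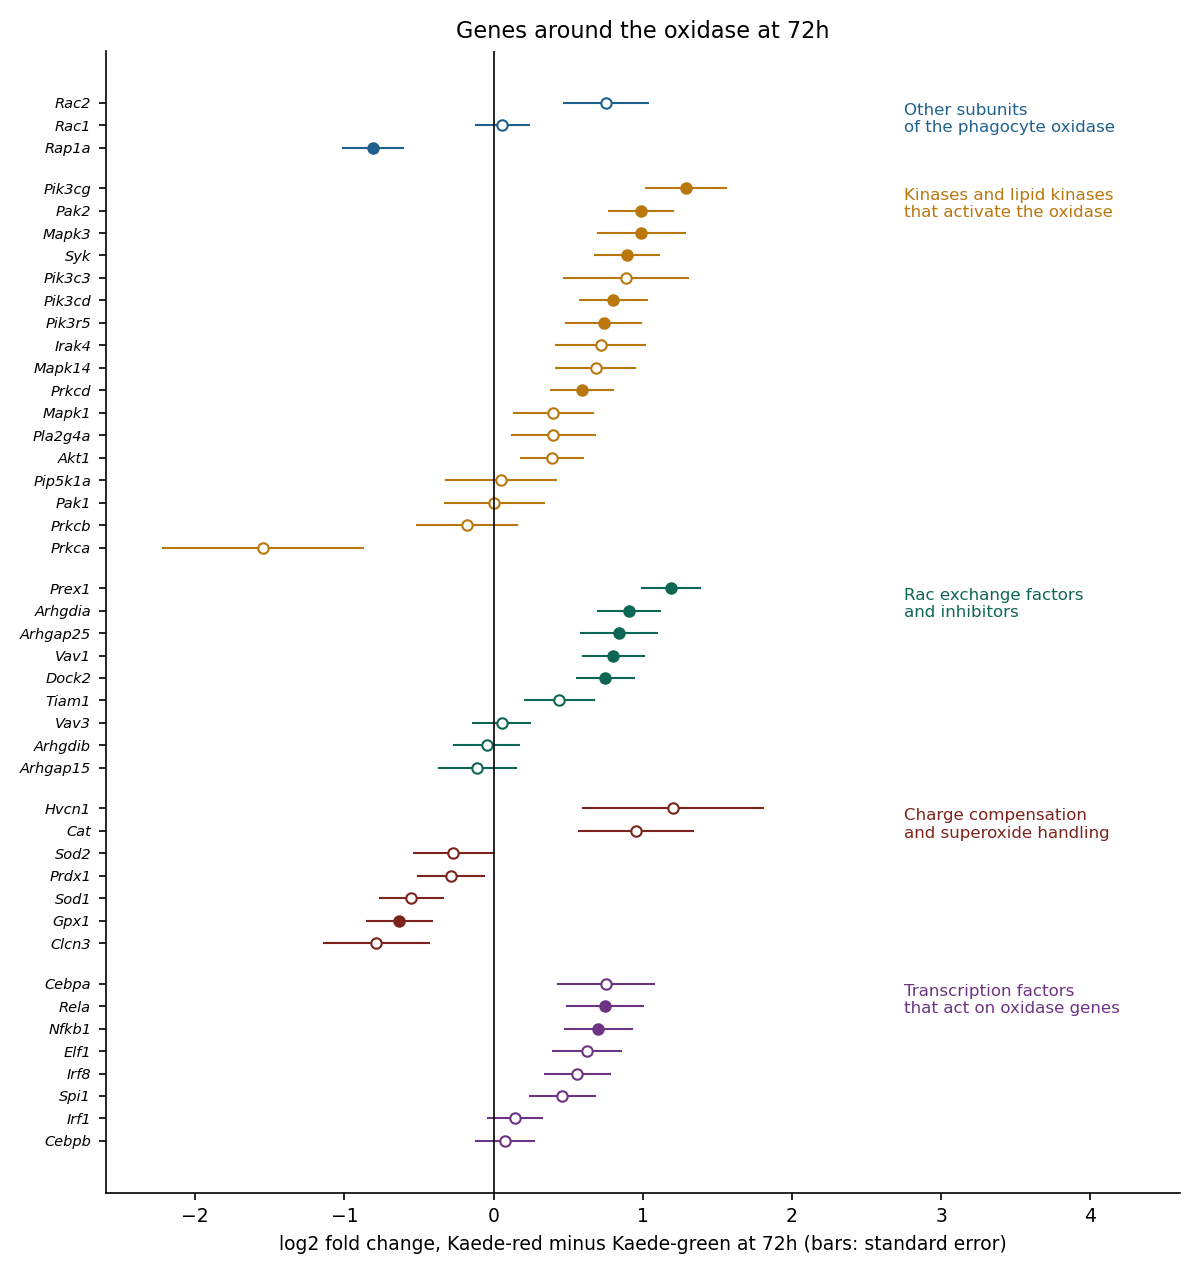
Difference of Kaede-red from Kaede-green cells at 72h, in log2 units (horizontal axis, bars are standard errors) of tested genes from 5 lists around the oxidase. Filled points passed an adjusted p of 0.05. To the right of 0, 7 of 17 kinases and 5 of 9 Rac regulators are filled, and *Gpx1* and *Rap1a* are filled on the left. Of all tested genes 8.06% were called higher and 8.76% lower at 72h.

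Markers of the sort and of other cells moved with *Cybb* in part. *Itgam*, *Itgb2* and *Ptprc* summed to medians of 230, 230, 244 and 405 CPM in MG24, MR24, MG72 and MR72, and all 3 rose at 72h, by 0.90 (adjusted p = 0.000981), 0.72 (adjusted p = 0.00766) and 0.64 (adjusted p = 0.0178). The 12 neutrophil markers in the files summed to 8.60 to 14.5 CPM in the libraries of the first 3 groups and 18.03 to 23.29 in MR72. *Csf3r* held most of this sum (16.4 CPM in MR72), while *S100a8*, *S100a9*, *Camp*, *Ngp*, *Elane* and *Retnlg* had group means of at most 1.15 CPM, with *Ngp* at 0 in every library. Fibroblast markers were lowest in MR72, with a summed 11.9 to 19.2 CPM against 45.5 to 49.9 in MG72. Monocyte markers had summed medians of 1455, 515, 942 and 578 CPM, and macrophage markers 1643, 914, 1182 and 1233. Of the 9 macrophage markers 6 were called higher and 1 lower in Kaede-red cells at 24h, and 7 higher and 0 lower at 72h. Their median log2 fold change at 24h was 1.26, although their sum was lower in MR24 than in MG24. A sum weighs the most abundant genes most, so it does not show the direction of most markers. Of all genes 3.22% were called higher and 4.28% lower at 24h, and 8.06% and 8.76% at 72h. Dendritic cell, B cell, T and NK cell, eosinophil and tumour epithelial markers summed to medians of at most 4.03 CPM, and erythroid markers to at most 7.61. The part of these markers in the results was not tested.

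The genes whose profile over the 16 libraries was nearest to that of each member were sought among 1391 genes with a mean log2 CPM of at least 4, by the root mean square difference of centred log2 CPM. For *Cybb* they were *Tln1* (0.15), *Notch2* (0.17), *Diap1* (0.18), *Plxnb2* (0.19) and *Znfx1* (0.19), against a median of 0.58 over all genes compared. *Tln1* had means of 47.4, 49.3, 49.6 and 113 CPM in MG24, MR24, MG72 and MR72. For *Cyba* the 5 nearest included *Gpx1* (0.13), *Dynll1* (0.19), *Psme2* (0.20) and *Ms4a6d* (0.20). *Gpx1* had means of 184, 152, 153 and 98.6 CPM. *Cyba* itself ranked 1113 in likeness to *Cybb*, with a difference of 0.89. The neighbours of *Cybb* with a known length spanned 7720 to 10782 exonic bases, and those of *Cyba* 1441 to 3890. *Ncf1* lay nearest to *Capns1* (0.32) and *Sema4d* (0.33), then to *Pik3ap1*, *Ifi30* and *Hmox2*. *Ncf4* lay nearest to *Capg* (0.19) and *Hspa8* (0.21), then to *Slfn1*, *Nfkb2* and *Snx18*. Libraries and their depth are shared by all these profiles, so the likeness is a description.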

How the data were processed

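RNA was sequenced from 16 libraries of sorted cells, 4 in each of 4 groups, after SMARTer stranded total RNA library preparation from 5 ng of RNA. Per the labels and the methods, the authors trimmed reads with Trim Galore, checked them with FastQC, used HISAT2 for alignment to mm10 and featureCounts for the counts; versions and the strand setting are not given in the sources used here. The deposited values are raw counts per gene, whole numbers without normalization, and the single and combined tables held identical values.

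Counts of 24421 genes were filtered with filterByExpr (minimum count 10, 9642 genes kept), scaled by TMM and fitted with edgeR 4.0.16 (R 4.3.3) quasi-likelihood models over all 4 groups, with Benjamini-Hochberg adjustment over all tested genes and a threshold of 0.05. The scripts were tested on simulated data. Log2 CPM used a prior count of 2. Count ratios between members used a pseudocount of 0.5 and two-sided exact permutation tests, in which 4 against 4 libraries cannot go below p = 0.0286. Exonic lengths came from GENCODE M21, matched by symbol for 95.7% of genes, and promoters from RefSeq.

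The 4 members and the gene lists were chosen with earlier results of these data known. Genes named from a list were, first, the up to 4 called over both times with the largest log2 fold change. Alternatives were DESeq2 1.42.0, other scalings and filters, a replicate block, the *Rn45s* share as a covariate, leaving out each library, and, added after the data were seen, offsets for length and GC, leaving out a pair of libraries, and the changes of the ratios with time. Replicate numbers are not stated to pair libraries across groups. Some genes of the lists are not reported here. The total counts limit the precision as given in the report.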

Additional observations from a re-analysis of the deposited data

Results flagged for a closer look

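MG24 replicate 1 had a log2 ratio of *Cyba* to *Ncf1* counts of 5.26, far from the other 3 libraries of its group, by Dixon's test of the gap against the range (0.888 of the range, above the critical value for 4 samples). It rests on 7 counts of *Ncf1*. Dixon's test was made on 16 groups of member levels and 24 groups of ratios, and chance flags about 1 in 20 groups.

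The red-green difference of *Cybb* was larger at 72h than at 24h, by 1.21 on the log2 scale (edgeR interaction term, adjusted p = 0.0373). With the *Rn45s* share as a covariate it was 1.12 (adjusted p = 0.0333), and with the length offset 1.31 (adjusted p = 0.0114). The call was lost with scaling by library size alone (0.77, adjusted p = 1.00) and without *Rn45s* in the library size (0.97, adjusted p = 0.103), and without any 1 of 9 of the 16 libraries.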

How the results depend on the processing

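Scaling by library size alone, which moved the median of all genes to between 0.42 and 2.33 in the comparisons other than the interaction, called 4 members and 9328 genes over both times, as well as 4 and 9054 at 24h, 8134 genes at 72h, 36 genes for time in Kaede-green cells, 0 members and 9 genes for time in Kaede-red cells, and 0 members and 1 gene in the interaction. Signs then turned for *Cyba* over both times (1.64) and at 72h (1.28), for *Cybb* (2.30), *Cyba* (2.00) and *Ncf4* (2.25) at 24h, and for *Cybb* (0.69), *Cyba* (0.44) and *Ncf4* (0.41) with time in Kaede-green cells. Of the 6 pairs of groups, the order held in 3 for *Cybb*, 2 for *Cyba* and 4 for *Ncf4*. Without *Rn45s* in the library size, 4 members and 5680 genes were called over both times, 4 and 4548 at 24h, 3564 genes at 72h, 2 members for time in Kaede-red cells, and 0 members and 117 genes in the interaction. Signs turned for *Cyba* over both times (0.34), *Cybb* (0.80), *Cyba* (0.73) and *Ncf4* (0.82) at 24h, and *Cybb* (0.082) and *Cyba* (0.013) with time in Kaede-green cells.

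With the *Rn45s* share as a covariate, 0 members were called over both times and at 72h. It called 156 genes over both times, 206 at the earlier time, 101 at the later, 110 for time in Kaede-red cells and 34 in the interaction, and *Ncf1* turned at 24h (-0.11) and with time in Kaede-green cells (-0.054). The length offset left 1 member over both times and at 72h, with 2 genes for time in Kaede-green cells and 204 in the interaction (*Ncf1* with time in Kaede-green cells -0.089). Length and GC left 1 member over both times, with 1090 genes at 24h, 3, 454 and 179 for time in Kaede-green cells, in Kaede-red cells and the interaction, *Ncf4* at -0.030 over both times and *Ncf1* at -0.10 with time in Kaede-green cells. DESeq2 called 12 genes for time in Kaede-green cells and 290 in the interaction, and no filter 37 and 216. A minimum of 10 counts in every library called 156 in the interaction, put *Cybb* at 0.0075 and *Ncf4* at 0.0092 at 24h, and gave no value for *Ncf1*. For time in Kaede-red cells 2 members were called by DESeq2, RLE factors, that minimum, the fit of only the groups compared (1604 genes) and the replicate block. The cause was not tested.

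The replicate block called 165 genes in the interaction and left the *Cybb* to *Cyba* ratio over both times at 0.89 (exact permutation p = 0.0703) and *Cyba* to *Ncf4* at -0.56 (p = 0.0547), while *Ncf1* passed over both times (0.61, edgeR adjusted p = 0.0254). Deviations of same-numbered libraries correlated from -0.018 to 0.153 (0.049 to 0.153 at 24h), and those of differently numbered libraries from -0.132 to 0.147. These ranges overlap and do not decide whether the numbers pair libraries. Pairing is not stated, so the block was kept as an alternative. With medians the *Cybb* to *Cyba* and *Cyba* to *Ncf4* ratios were 0.94 (exact permutation p = 0.0992) and -0.52 (p = 0.0816). Without MG24 replicate 1 and MR72 replicate 3 together 1 member was called over both times.

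Leaving out 1 library at a time, members called ranged from 1 to 3 over both times and at 72h, 1 to 2 for time in Kaede-red cells and 0 to 1 in the interaction. All genes called ranged from 0 to 2 for time in Kaede-green cells, 280 to 1108 in Kaede-red cells and 2 to 155 in the interaction. At 24h *Cybb* ranged from -0.21 to 0.019, *Cyba* from -0.40 to 0.016 and *Ncf4* from -0.28 to 0.0027. With time in Kaede-green cells *Cyba* ranged from -0.40 to 0.0095 and *Ncf1* from -0.17 to 0.37. The ratio of *Cybb* to *Ncf4* ranged from 0.24 to 0.44 (it passed without MG24 replicate 4, exact permutation p = 0.0110), and *Cyba* to *Ncf4* from -0.68 to -0.44 (lost without MG24 replicate 2, MR24 replicates 1 or 2, MG72 replicate 2, or MR72 replicates 1 or 4, p between 0.0506 and 0.0690). *Ncf1* had as few as 7 counts in a library.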
